A study of Sus scrofa with 6 samples.

Results

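RAB proteins are small GTPases that mark the membranes of the cell. Of the 21280 protein-coding genes measured here 14821 matched a symbol, and 51 of these carry a RAB name. These members were chosen by name, as every gene whose pig symbol is RAB followed by a number and at most 1 letter. Earlier results of these data were known at that point. The name table holds 57 such symbols, and RAB1B, RAB5B, RAB21, RAB32, RAB36 and RAB40B had no matching row and were not analysed here. The members were separated into 6 synaptic ones, RAB3A, RAB3B, RAB3C, RAB3D, RAB27A and RAB27B, and 45 others, most of which serve traffic in every cell.

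RNA came from tissue labelled brain in 3 wild boars and cerebrum in 3 pigs of the Rongchang breed, domesticated in China. Every animal was a 2-year-old female per the labels, which name no treatment or genetic change. The pig libraries were labelled as re-analysed from an earlier deposit, so breed, source of the libraries and labelled tissue cannot be told apart. The series title names the prefrontal cortex, and each animal gave 1 library.

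A RAB protein switches between a GTP-bound form, which sits on a membrane and recruits effectors, and a GDP-bound form that the carrier protein GDI lifts off into the cytosol. Exchange factors (GEFs) turn it on and GTPase-activating proteins (GAPs, most with a TBC domain) turn it off. A lipid tail added by RAB geranylgeranyl transferase anchors it. In neurons RAB3 proteins sit on synaptic vesicles and bind RIM and rabphilin at release sites, while RAB27 proteins are best known from secretory granules and lysosome-related organelles.

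Gene levels are in TPM, a transcript abundance that is scaled by gene length, so different genes can be compared. The protein-coding sum was 17.17% to 40.88% of the full TPM scale of 1000000, and TPM keep no depth, so the reads behind each level are unknown. Each library was therefore also divided by its median ratio to the other libraries ("rescaled TPM"), and over the 11752 tested genes the median log2 fold change then went from -0.41 to 0.01. A gene was tested when it reached 1 TPM in at least 3 libraries, on log2(TPM + 1), and a fold change on that scale understates changes of low genes. Neuronal markers were present in every library, with 0 of 8 at 0, and their summed rescaled TPM overlapped between groups (1718.5 to 2053.9 in wild boar, 1680.8 to 2121.6 in Rongchang pig). Single neuronal markers went both ways, with groups not overlapping for 2 of the 8 as higher in wild boar and 1 as lower. TUBB3 passed as higher (rescaled log2 fold change 0.80, limma adjusted p = 0.00617) and the other 7 did not pass. Sums of astrocyte, oligodendrocyte and microglia markers overlapped too, with 1 of 6 genes passing in each list. Summed endothelial markers did not overlap (24.2 to 36.0 against 16.2 to 18.0 over 5 genes), nor did mural cell and fibroblast markers (34.7 to 70.9 against 21.5 to 32.7 over 7 genes) or red blood cell markers (449.8 to 1323.7 against 85.9 to 228.2 over 4 genes). All 3 sums stood higher in wild boar, with 1 of 5, 3 of 7 and 4 of 4 genes passing on rescaled TPM. The endothelial gene that passed was CLDN5 (rescaled log2 fold change 1.28, limma adjusted p = 0.00623), the most abundant of its list in every library. CDH5 did not overlap but did not pass, and FLT1, ESAM and PECAM1 overlapped between groups. Most of the red blood cell sum was HBB. None of the genes in these sums was at 0 in any library, and their part in the RAB results below was not tested. In such tissue RNA, fewer cells of a type and less RNA per cell cannot be told apart.

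RAB3A, the main RAB of synaptic vesicles, was the most abundant member in all 6 libraries. Its deposited level was 169.9, 132.1 and 232.8 TPM in wild boar 1 to 3 and 135.2, 230.1 and 249.0 TPM in Rongchang pig 1 to 3. By mean deposited TPM over the 6 libraries it was followed by the Golgi and secretory pathway members RAB6A (125.5 TPM), RAB1A (103.4 TPM) and RAB2A (93.5 TPM). Next came RAB11A of the recycling endosome (62.0 TPM), RAB6B, a brain-enriched Golgi member (59.6 TPM), the vesicle member RAB3C (49.8 TPM) and RAB10, which acts in exocytosis (48.2 TPM). In total 25 members had a mean above 10 TPM. The summed deposited level of all 51 was 1060.2, 696.9 and 1497.6 TPM in wild boar and 972.0, 1533.0 and 1568.6 TPM in Rongchang pig. As a share of the protein-coding sum this was 0.406% to 0.482% in wild boar and 0.384% to 0.431% in Rongchang pig, ranges that overlap.

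**Figure D1:**
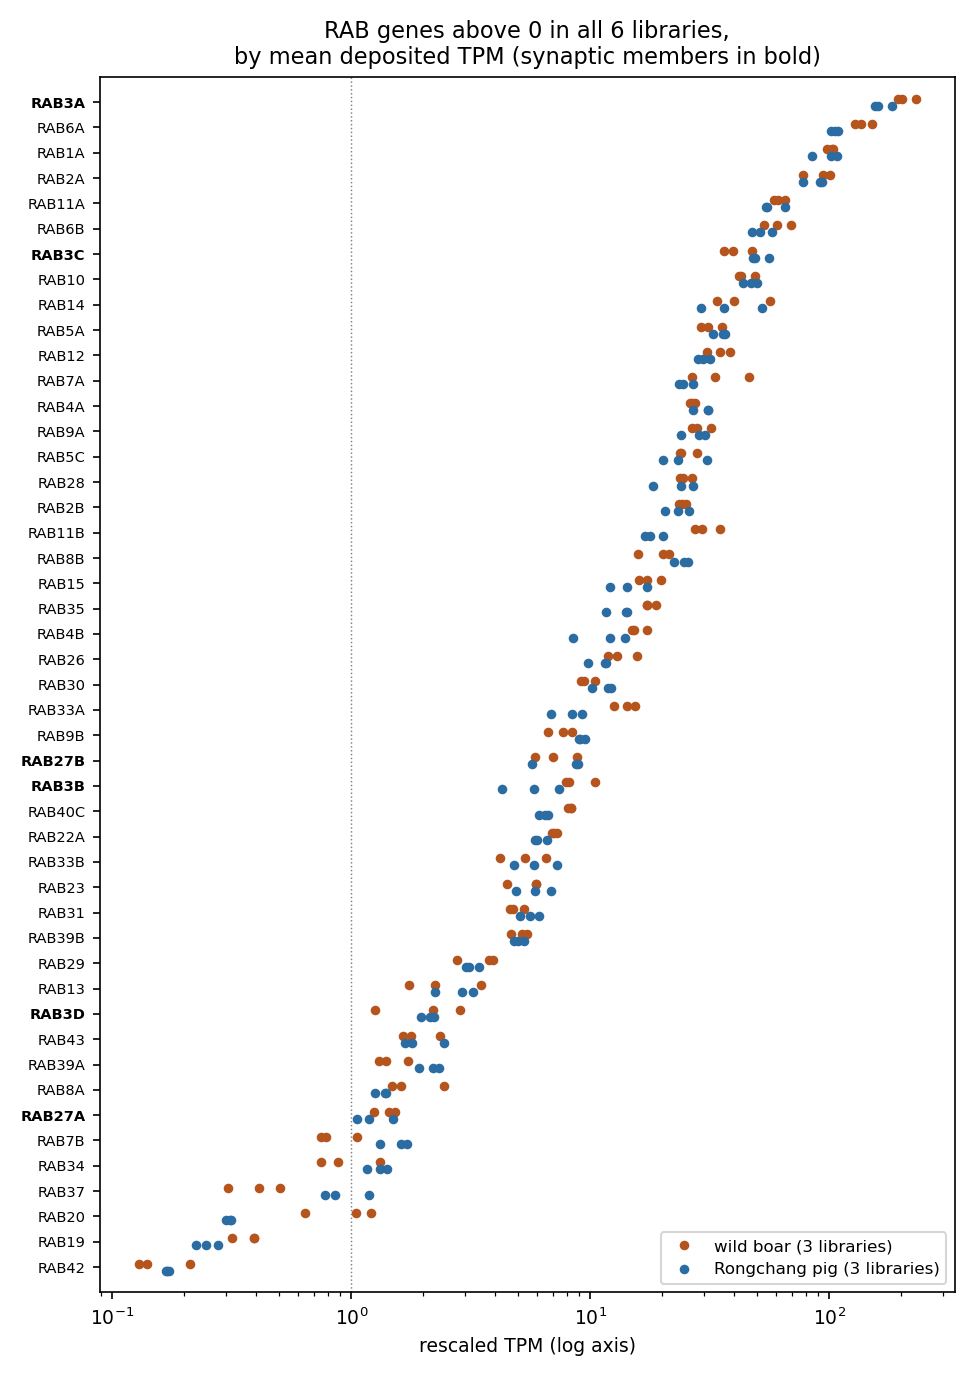
Rescaled TPM (horizontal log axis) of the 47 RAB genes above 0 in all 6 libraries, ordered by mean deposited TPM, with 1 point per library (brown for wild boar, blue for Rongchang pig) and synaptic members in bold. RAB3A leads, and most members overlap between the groups.

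The low end held members known from other tissues. RAB17 and RAB25, of epithelial cells, RAB38, of pigment cells, and RAB44, of blood cells, were listed at 0 in at least 1 library each, with mean deposited levels of at most 0.0655 TPM. RAB19, RAB20, RAB37 and RAB42 were above 0 in every library but under the limit for testing. Thus 43 of the 51 members were tested. Of these, RAB7B passed that limit through the Rongchang pig libraries alone, and RAB34 through all 3 Rongchang pig libraries and 1 wild boar library.

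On rescaled TPM, 5 of 43 members passed at an adjusted p under 0.05 (limma, Benjamini-Hochberg over all genes), 4 higher and 1 lower in wild boar. Among all tested genes 19.5% passed, 8.88% as higher and 10.7% as lower, against 11.6% of the RAB genes. The 4 were RAB11B, RAB33A, RAB35 and RAB40C, and the lower one was RAB7B. The members' median log2 fold change was 0.06, against 0.01 for all genes, and the members ranged from -0.45 to 0.72. Groups did not overlap for 11 members that stood higher in wild boar (25.6%; 19.6% of all genes) and 5 that stood lower (11.6%; 22.1% of all genes). On deposited TPM 0 of the 43 passed by limma, against 1.6% of all genes, and 3 had an unadjusted p under 0.05 (6.98%; 17.8% of all genes). The median SE of the members was 0.413 on deposited and 0.131 on rescaled TPM, so changes of the size seen on rescaled TPM were not detectable on deposited TPM. There the members' median was -0.41, the same to 2 decimals as that of all genes, and only RAB3B, RAB11B and RAB33A were above 0. Of all genes 0.136% passed there as higher and 1.46% as lower, and groups did not overlap for 0 members higher (0.408% of all genes) and 4 lower (9.3%; 17.1% of all genes). RAB11B and RAB33A also passed on rescaled TPM whichever 1 library was left out, whereas RAB35, RAB40C and RAB7B (tested in 3 of those fits) passed in none, so that 2 members were higher without any wild boar or without Rongchang pig 1 or 3. Over all genes 6.66% to 12.3% passed in those fits, and 19.0% without Rongchang pig 2. Without Rongchang pig 2, RAB3B passed too and RAB39A was lower (-0.40, limma adjusted p = 0.0492).

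**Figure D2:**
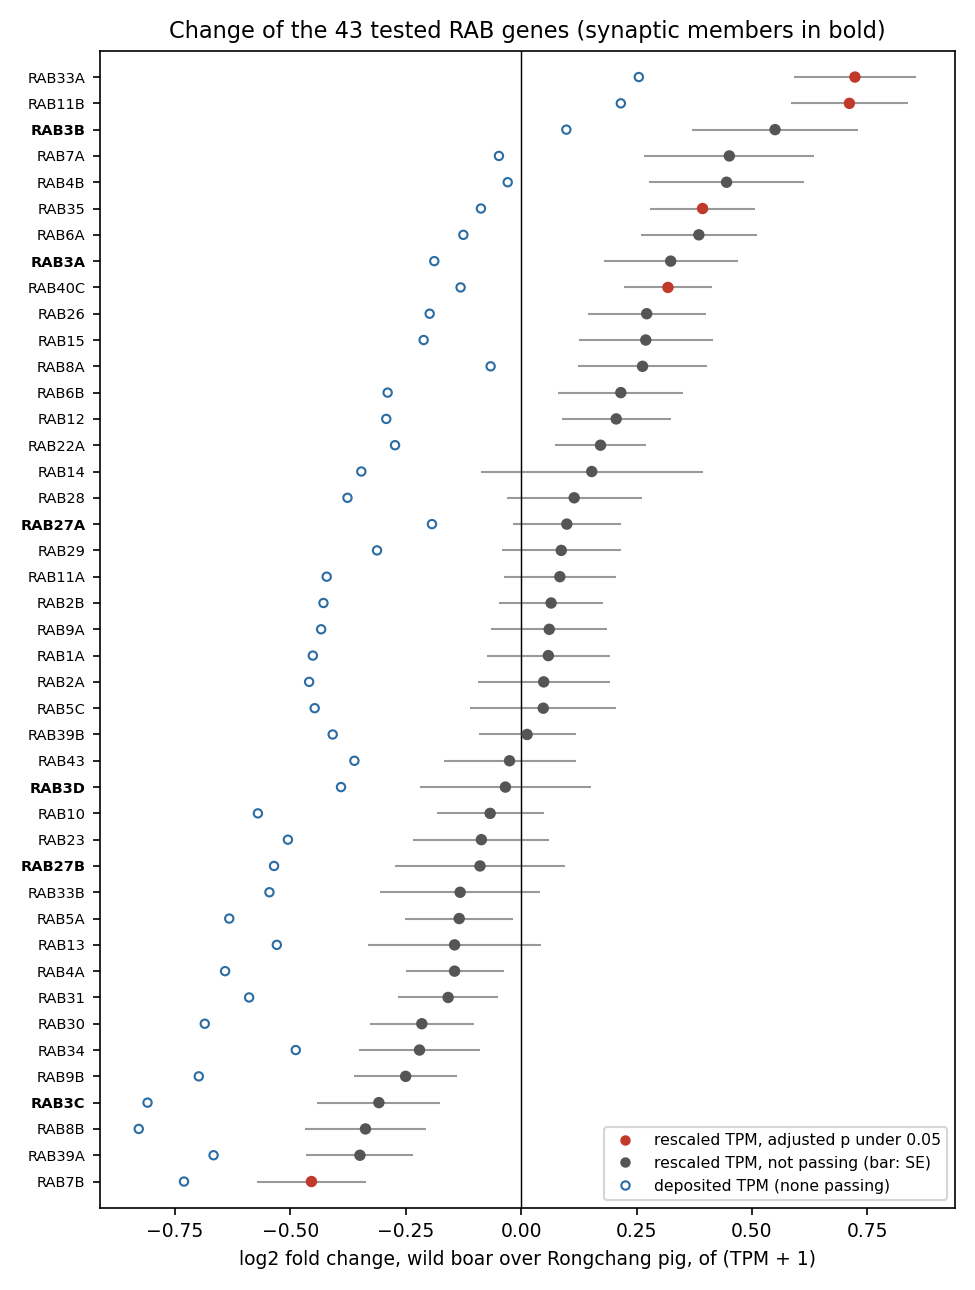
Log2 fold change of TPM + 1, wild boar over Rongchang pig, for the 43 tested RAB genes on rescaled TPM (filled points with SE bars, red where the adjusted p is under 0.05) and on deposited TPM (open points); synaptic members are in bold. The 5 red genes are RAB33A, RAB11B, RAB35, RAB40C and RAB7B, and deposited values lie lower for every gene.

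Of the 6 synaptic members 0 passed by limma on either scaling. Among all tested genes 19.5% passed on rescaled and 1.6% on deposited TPM. An unadjusted p under 0.05 was seen for 2 of the 6 on rescaled TPM (36.8% of all genes) and 0 on deposited TPM (17.8% of all genes). The median rescaled log2 fold change of the 6 was 0.03. RAB3A was at 193.4, 230.1 and 200.7 rescaled TPM in wild boar and 154.9, 160.5 and 182.4 in Rongchang pig. Every wild boar library stood above every Rongchang pig library. The rescaled log2 fold change of RAB3A was 0.32 (SE 0.14, 95% interval -0.006 to 0.65, limma adjusted p = 0.141). With quantile normalization it was 0.07 (adjusted p = 0.751), and on deposited TPM it was -0.19.

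RAB3C, a second vesicle member of the same group, stood the other way. It was at 39.7, 36.1 and 47.3 rescaled TPM in wild boar and 48.7, 55.9 and 47.9 in Rongchang pig. The groups did not overlap, although wild boar 3 and Rongchang pig 3 lay side by side. The rescaled log2 fold change of RAB3C was -0.31 (SE 0.13, 95% interval -0.61 to -0.005, limma adjusted p = 0.13), and on deposited TPM it was -0.81.

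RAB3B, found in fewer neurons and in endocrine cells, was at 8.15, 7.92 and 10.5 rescaled TPM in wild boar and 4.26, 7.37 and 5.79 in Rongchang pig. Its groups did not overlap, with wild boar higher. The rescaled log2 fold change of RAB3B was 0.55 (SE 0.18, limma adjusted p = 0.0629). Without Rongchang pig 2 it passed, at 0.70 (adjusted p = 0.0273).

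The other synaptic members overlapped between groups. RAB27B was at 7.19 ± 1.48 rescaled TPM in wild boar and 7.75 ± 1.77 in Rongchang pig (SD, n = 3 each). RAB3D, better known from exocrine granules, was at 2.10 ± 0.811 and 2.10 ± 0.137 rescaled TPM. RAB27A, needed to move melanosomes and cytotoxic granules, was at 1.40 ± 0.148 and 1.24 ± 0.230 rescaled TPM. The 95% intervals of their log2 fold changes were -0.51 to 0.33, -0.45 to 0.39 and -0.17 to 0.37, so changes of about that size were not detectable here.

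Together the synaptic members made 20.8%, 23.4% and 21.0% of the summed RAB level in wild boar and 19.5%, 22.1% and 21.6% in Rongchang pig, shares that do not depend on how libraries are scaled and that overlap. Within the synaptic sum, RAB3A took 77.1%, 80.9% and 74.1% in wild boar and 71.5%, 68.0% and 73.4% in Rongchang pig, with every wild boar library above every Rongchang pig library. The ratio of RAB3C to RAB3A was 0.205, 0.157 and 0.236 in wild boar and 0.314, 0.348 and 0.263 in Rongchang pig, again without overlap. With 3 against 3 animals an exact two-sided permutation test of such a ratio cannot go below p = 0.1.

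**Figure D3:**
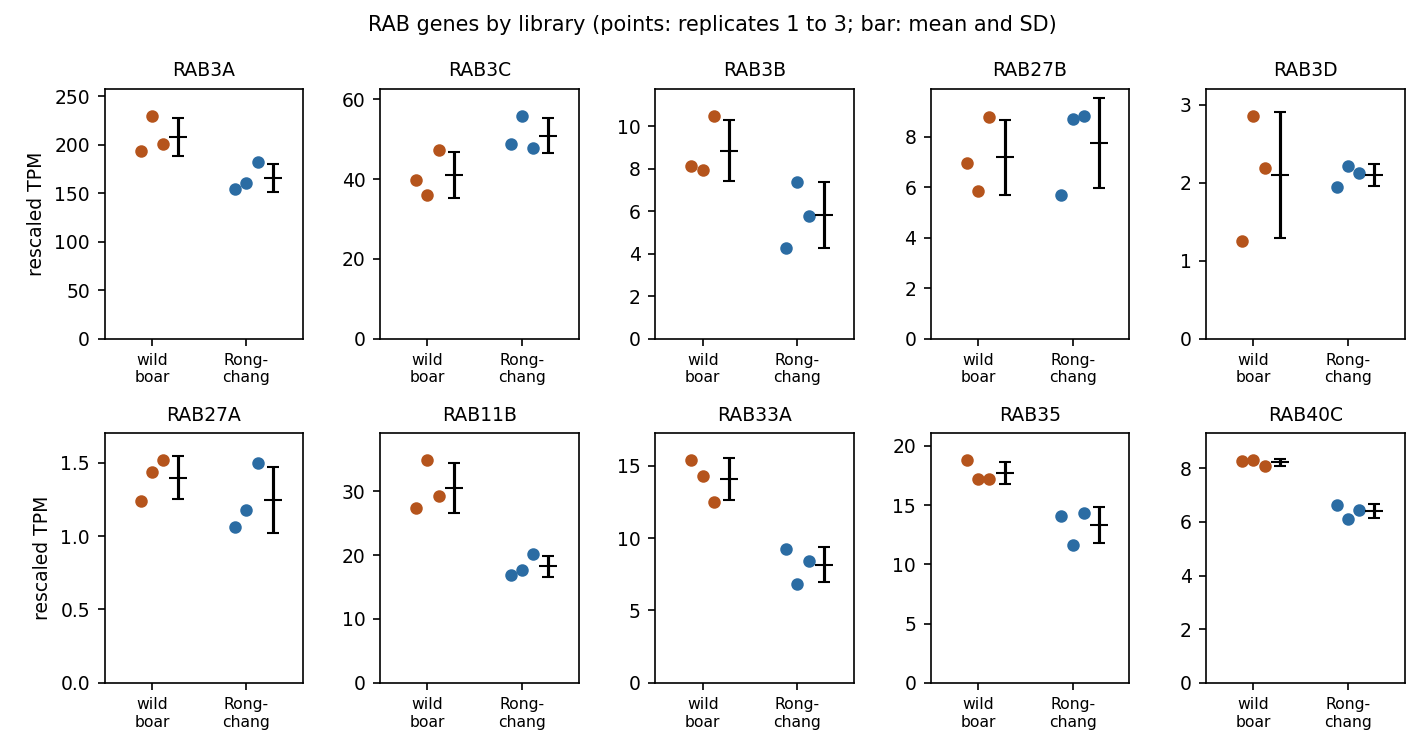
Rescaled TPM (vertical axes from 0) of the 6 synaptic RAB genes and of RAB11B, RAB33A, RAB35 and RAB40C, with 1 point per library and the mean ± SD beside each group of 3. The groups separate most clearly for RAB11B and RAB33A and overlap for RAB27A, RAB27B and RAB3D.

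Among the 37 other members tested, RAB11B and RAB33A were the higher ones that passed with any 1 library left out. RAB11B, a recycling endosome member enriched in brain, was at 27.3, 34.9 and 29.3 rescaled TPM in wild boar and 16.9, 17.7 and 20.1 in Rongchang pig. All wild boar libraries stood above all Rongchang pig libraries. The rescaled log2 fold change of RAB11B was 0.71 (SE 0.13, limma adjusted p = 0.0105), and it passed without any 1 library (adjusted p 0.0188 to 0.0432). On deposited TPM RAB11B was at 0.22 and did not pass (adjusted p = 0.781).

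RAB33A, a neuronal member linked to Golgi-derived vesicles in growing axons, was at 15.4, 14.3 and 12.5 rescaled TPM in wild boar and 9.23, 6.85 and 8.39 in Rongchang pig. The groups did not overlap. The rescaled log2 fold change of RAB33A was 0.72 (SE 0.13, limma adjusted p = 0.0115), and it too passed without any 1 library (adjusted p 0.0165 to 0.043). On deposited TPM RAB33A was at 0.25 (adjusted p = 0.727).

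RAB35, which returns cargo from endosomes to the plasma membrane, and RAB40C, which carries a SOCS box and joins a ubiquitin ligase, changed less. RAB35 was at 18.8, 17.2 and 17.2 rescaled TPM in wild boar and 14.1, 11.6 and 14.3 in Rongchang pig, without overlap. Its change on rescaled TPM was 0.39 (SE 0.11, limma adjusted p = 0.0444). RAB40C was at 8.28, 8.31 and 8.07 rescaled TPM in wild boar and 6.64, 6.11 and 6.45 in Rongchang pig, also without overlap (0.32, SE 0.10, limma adjusted p = 0.0498). Neither passed once any 1 library was left out (adjusted p 0.0633 to 0.13 for RAB35 and 0.0749 to 0.129 for RAB40C), and RAB40C did not pass with quantile normalization (adjusted p = 0.0508). On deposited TPM both turned to the other side of 0, RAB35 at -0.09 and RAB40C at -0.13.

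RAB7B, a late endosome member related to RAB7A, was at 0.659, 0.606 and 0.905 deposited TPM in wild boar and 1.49, 2.33 and 1.80 in Rongchang pig. The groups did not overlap on either scaling. The rescaled log2 fold change of RAB7B was -0.45 (SE 0.12, limma adjusted p = 0.0322). As it reached the limit for testing in Rongchang pig alone, a difference was built into its entry; without the filter it was at -0.42 (adjusted p = 0.0577). Its fold change depended on the pseudocount, at -0.78 with 0.1 TPM added.

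By role, counts of passing members are small and stand beside 19.5% of all tested genes passing on rescaled TPM. Of 5 tested members of the recycling endosome RAB11B and RAB35 were higher and RAB11A, RAB14 and RAB15 did not pass, with a median rescaled log2 fold change of 0.27. RAB14, which works between the Golgi and endosomes, varied widely within groups, at 33.8 to 56.5 rescaled TPM in wild boar and 28.9 to 52.1 in Rongchang pig. Of 12 tested ER and Golgi members RAB33A was higher and 11 did not pass (median 0.03). RAB6A, a regulator of Golgi transport, stood at 135.9, 127.6 and 150.3 rescaled TPM in wild boar and 105.1, 101.4 and 109.1 in Rongchang pig. The groups did not overlap, but RAB6A missed the threshold, at 0.39 on rescaled TPM (SE 0.13, limma adjusted p = 0.0625), was at 0.25 with quantile normalization (adjusted p = 0.185), and was at -0.125 on deposited TPM. RAB1A and RAB2A, the main ER-to-Golgi members, were at 0.06 and 0.05 with adjusted p of 0.784 and 0.835, and at -0.05 and -0.08 with quantile normalization.

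Of 8 tested exocytic and ciliary members 0 passed by limma (median 0.02), where 19.5% of all tested genes passed. The largest difference among them was that of RAB8B, which acts in polarised exocytosis, at 19.1 ± 2.88 rescaled TPM in wild boar and 24.2 ± 1.65 in Rongchang pig (SD, n = 3 each; log2 fold change -0.34, limma adjusted p = 0.101). RAB10 was at -0.07 (adjusted p = 0.712). Of 6 tested early endosome members 0 passed (median -0.04), and the largest difference was that of RAB4B, a fast recycling member, at 0.45 on rescaled and -0.03 on deposited TPM (SE 0.17 on rescaled, limma adjusted p = 0.0909). RAB5A and RAB5C, which define early endosomes, were at -0.13 and 0.05. Of 5 tested late endosome and lysosome members only RAB7B passed (median 0.06). RAB7A, the central late endosome member, was at 26.5, 46.0 and 33.3 rescaled TPM in wild boar and 24.5, 27.0 and 23.4 in Rongchang pig (log2 fold change 0.45, SE 0.18, limma adjusted p = 0.113), and at -0.05 on deposited TPM.

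Several close relatives differed in their ratio, which is free of library scaling. These pairs were chosen with the values known, and no share of separated ratios over other gene pairs was taken. For single genes on rescaled TPM, groups did not overlap for 19.6% of all tested genes as higher in wild boar and 22.1% as lower. The ratio of RAB11B to RAB11A was 0.466, 0.571 and 0.451 in wild boar and 0.258, 0.321 and 0.370 in Rongchang pig. RAB33A stood at 2.88, 3.42 and 1.93 times RAB33B in wild boar and 1.27, 1.18 and 1.76 times in Rongchang pig. The ratio of RAB4B to RAB4A was 0.541 to 0.668 in wild boar and 0.273 to 0.452 in Rongchang pig. The ratio of RAB8A to RAB8B was 0.0736 to 0.115 in wild boar and 0.0492 to 0.0627 in Rongchang pig, with RAB8A low, at 1.10 to 2.01 deposited TPM. These 4 ratios were higher in every wild boar library than in any Rongchang pig library.

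The opposite order held for RAB7B to RAB7A, at 0.0229 to 0.0283 in wild boar and 0.0565 to 0.0696 in Rongchang pig. RAB7B was under 1 deposited TPM in every wild boar library and reached the limit for testing in Rongchang pig alone. The same order as for RAB7B held for RAB9B to RAB9A, late endosome members that serve return to the Golgi, at 0.249 to 0.275 and 0.313 to 0.374. It also held for RAB39A to RAB39B, at 0.239 to 0.336 and 0.361 to 0.487. Ratios of RAB3B to RAB3A, RAB6B to RAB6A, RAB2B to RAB2A, RAB5C to RAB5A and RAB27A to RAB27B overlapped. Where relatives share stretches of sequence, the counting could split their reads, so single levels are uncertain.

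**Figure D4:**
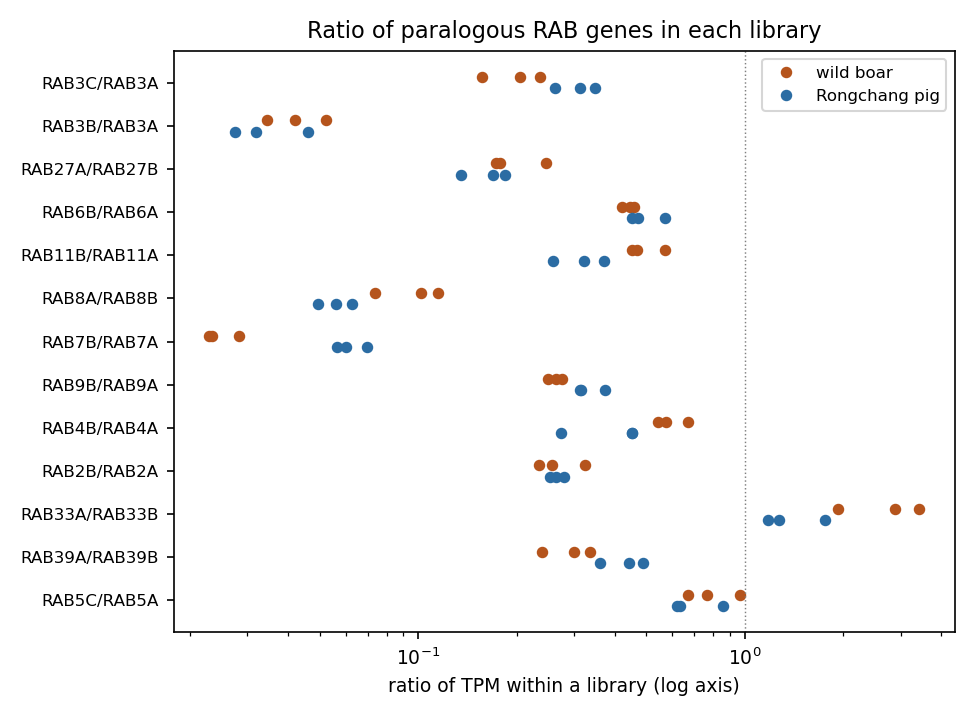
Ratio of TPM within each library (horizontal log axis) for 13 pairs of related RAB genes, chosen with the values known, 1 point per library. Wild boar points lie to the right for RAB11B over RAB11A, RAB4B over RAB4A, RAB8A over RAB8B and RAB33A over RAB33B, to the left for RAB3C over RAB3A, RAB7B over RAB7A, RAB9B over RAB9A and RAB39A over RAB39B, and overlap for the rest.

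Genes that work with RAB proteins passed at about the share of all genes, 16 of 89 tested (18.0%; 19.5% of all genes), 11 higher and 5 lower on rescaled TPM; on deposited TPM 0 passed by limma and 7 had an unadjusted p under 0.05 (7.87%; 17.8% of all genes). With Rongchang pig 2 left out, 13 partners were higher and 6 lower, and without any other library 4 to 7 were higher and 2 to 4 lower. Among chaperones and lipid-anchoring factors, 3 of 6 were higher and 0 lower. RABAC1, which helps release RAB proteins from GDI, was at 0.72 (SE 0.15, limma adjusted p = 0.0164). GDI2, which carries RAB proteins in the cytosol, was at 0.45 (adjusted p = 0.0373), and RABGGTA, a subunit of the lipid transferase, at 0.47 (adjusted p = 0.0411).

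Of 7 tested effectors of RAB3 and RAB27, 2 were higher. RPH3A, which encodes rabphilin, was at 0.73 (SE 0.18, limma adjusted p = 0.0249). SYN1, a synapsin of the vesicle surface, was at 1.13 (SE 0.34, adjusted p = 0.0496) although its groups overlapped. RIMS1 and RIMS2, the RIM scaffolds of release sites, were at -0.002 and -0.27 (adjusted p = 0.995 and 0.125). Of 7 tested regulators of RAB3 and RAB27 only TBC1D10B, a GAP, passed, at 0.75 (SE 0.12, limma adjusted p = 0.00802). MADD, a RAB3 exchange factor, and RAB3GAP1, of the RAB3 GAP, were at 0.06 and -0.32 (adjusted p = 0.776 and 0.109).

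Endosomal effectors went both ways, with 2 higher and 2 lower of 18. RAB11FIP3 and RAB11FIP5, which bind RAB11 proteins, were higher by 0.66 each (limma adjusted p = 0.00754 and 0.0155). EEA1, the tether that RAB5 recruits to early endosomes, and APPL2, another RAB5 effector, were at -0.49 and -0.35 (adjusted p = 0.0202 and 0.0384). Of 22 exchange factors SBF1 was higher, at 0.86 (adjusted p = 0.00641), and its relative SBF2 was lower, at -0.63 (adjusted p = 0.0142), as was DENND4A, at -0.52 (adjusted p = 0.0129). Of 29 tested genes of the TBC domain family TBC1D17 and EVI5L were higher (0.55 and 0.38) and TBC1D23 lower (-0.48). On deposited TPM GDI2 and EVI5L turned to -0.06 and -0.05. For comparison, 2 of 21 tested genes of the ARF family (9.52%), other small GTPases, passed on rescaled TPM.

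The members were also searched for circular RNAs (circRNAs), loops in which a downstream exon end is joined to an upstream one. Of 11375 circRNAs in the second table, 13 lay inside 8 members, and the other 43 members, all 6 synaptic ones included, hosted none. Reads across the joint were recovered from the steps of the values as the smallest whole numbers that fit, so they are lower bounds. The 13 held 39, 55 and 33 such reads in wild boar and 92, 60 and 66 in Rongchang pig. Over all circRNAs the libraries held 37670, 58670 and 33360 recovered reads in wild boar and 70365, 48375 and 72167 in Rongchang pig. Read counts, here and below, therefore cannot be compared between libraries without regard to this depth. A count of 0 allows up to 3 reads, counting error only.

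RAB6A hosted 4 of them. Its most abundant one (ssc_circ_7728, chromosome 9, 8147104 to 8157830, minus strand, positions as deposited with the start counted from 1, build not given in the sources used here) rested on 12, 15 and 13 reads for wild boar and 30, 16 and 16 for Rongchang pig. In deposited TPM that was 0.957, 0.741 and 1.27 against 1.86, 1.48 and 1.21, and the groups overlapped. It ranked 301 of all circRNAs by mean TPM. A longer loop with the same lower coordinate (ssc_circ_7730, ending at 8161582) rested on 2, 2 and 1 reads for wild boar and 7, 3 and 6 for Rongchang pig, without overlap (log2 fold change -1.33, SE 0.57, limma adjusted p = 0.289).

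RAB14 hosted 2, of which ssc_circ_1836 (chromosome 1, 261237316 to 261246048, minus strand) rested on 4, 5 and 1 reads for wild boar and 4, 8 and 16 for Rongchang pig. The RAB5A circRNA (ssc_circ_3566, chromosome 13, 6908887 to 6909142, plus strand) had 4, 4 and 0 reads against 10, 11 and 3. The RAB11A circRNA (ssc_circ_1406, chromosome 1, 163865640 to 163866262, plus strand) had 3, 10 and 6 reads against 15, 9 and 7. The RAB28 circRNA (ssc_circ_6657, chromosome 8, 9106389 to 9120512, minus strand) had 3, 3 and 5 reads against 6, 3 and 6. These 5 were the most abundant, and another RAB14 loop (ssc_circ_1837) followed with 4, 1 and 3 reads against 2, 1 and 4. The other hosts were RAB10, RAB7A and RAB23 (2 circRNAs). For each of the circRNAs named from RAB14, RAB5A, RAB11A and RAB28 the groups overlapped.

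Of the 12 circRNAs tested 0 passed by limma, the lowest adjusted p was 0.225, and 0.134% of all tested circRNAs passed. Groups did not overlap in TPM for 2 of the 12, both from RAB6A and lower in wild boar (18.2% of all circRNAs were lower and 2.46% higher without overlap). These were ssc_circ_7730 and ssc_circ_7729. The latter rested on only 0, 3 and 0 reads for wild boar and 3, 2 and 4 for Rongchang pig, counts that overlap. The median log2 fold change of the 12 on deposited TPM was -0.69, against -0.46 for all 9709, and 9 of the 12 were below 0. After the circRNA table was itself rescaled, their median was -0.13 with 7 of 12 below 0, and the RAB6A loop ssc_circ_7728 moved from -0.61 to -0.03. The gene and circRNA tables were normalized separately, so levels are not compared between them.

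**Figure D5:**
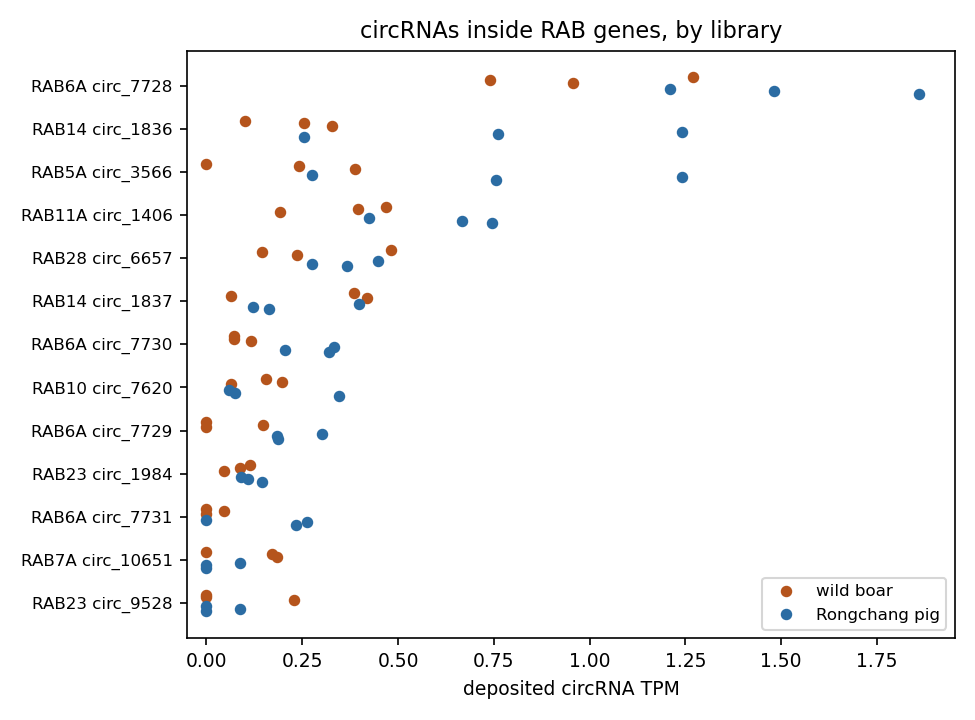
Deposited circRNA TPM (horizontal axis) of the 13 circRNAs inside RAB genes, 1 point per library (brown for wild boar, blue for Rongchang pig). The RAB6A circRNA at the top ranges from 0.741 to 1.86, and the others lie below 0.5 in wild boar.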

How the data were processed

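Trizol extraction, ribosomal RNA depletion and a stranded library kit were used, per the labels' protocols. Tools in the submitters' processing notes are BWA 0.7.17 and STAR 2.6.0c; their roles, the genome build, quantifier, annotation and circRNA caller are not given in the sources used here. Files deposited by the authors hold TPM of genes and TPM of circRNAs, 1 column per library, and 0 further columns were unused. Symbols came from a table of Ensembl identifiers (14821 of 21280 matched). Members and lists were chosen with earlier results of these data known. Rescaling used the median ratio over tested genes. Genes were fitted together in R 4.3.3 by limma 3.58.1 (trend option), two-sided, Benjamini-Hochberg over all genes; circRNAs above 0 in at least 3 libraries were fitted on log2(TPM + 0.043), about 1 read. The limma fit was tested on simulated data. P-values set the group difference against the spread between libraries within groups, with 1 library per animal. They do not separate breed from library source or labelled tissue. CircRNA hosts were assigned by position from the Sscrofa11.1 RefSeq gene table (99.27% inside a gene, 47.18% after a shift of 1000000 bases). All 11375 circRNAs gave whole reads within a relative tolerance of 1e-05, and libraries held 33360 to 72167 recovered reads. Named in full were the synaptic members, members passing on rescaled TPM, the 8 of highest mean TPM, the member of largest change per role, passing partners, and the 6 circRNAs of highest mean TPM. Alternatives were deposited and quantile scaling, pseudocounts of 0.1 and 0.5, no filter, a filter of 5 TPM, a replicate block, and leaving out each library.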

Additional observations from a re-analysis of the deposited data

How the results depend on the processing

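Scaling changed most. On deposited TPM 0 RAB genes, 0 of the other RAB genes and 0 partner genes passed, higher or lower, the median log2 fold changes of all, synaptic and other RAB genes were -0.41, -0.29 and -0.42, and RAB35 and RAB40C turned to -0.087 and -0.131; with the SE there, a count of 0 says nothing of stability. With a filter of 5 TPM 5 RAB genes were higher (RAB6A newly, adjusted p = 0.0409) and 0 lower, overall and among the other RAB genes, as RAB7B was no longer tested. Without a filter 4 were higher and 1 lower, but RAB35 (adjusted p = 0.0534) and RAB7B (0.0577) gave way to RAB20 (0.60, adjusted p = 0.0316) and RAB37 (-0.43, adjusted p = 0.0485), and 3 partner genes were lower. The replicate numbers of the titles did not pair the samples (correlations of same-numbered deviations 0.112, -0.074 and -0.163); with the replicate block 2 RAB genes (also 2 of the other RAB genes) were higher and 0 lower, and 6 partner genes were higher. Leaving out 1 library gave 2 to 3 RAB genes higher and 0 to 1 lower, 0 to 1 synaptic RAB genes higher, 2 other RAB genes higher in every case and 0 to 1 lower, and 4 to 13 partner genes higher and 2 to 6 lower; the median was -0.008 to 0.091 for all, -0.016 to 0.168 for synaptic and -0.028 to 0.101 for other RAB genes, with the negative values of all and other members without Rongchang pig 2. Over all genes, against 19.5%, 10.6% passed with the block, 9.07% without a filter, 23.7% with the filter of 5 TPM, 20.1% with quantile normalization and 6.66% to 19.0% without 1 library. Of 241 values of 19 named members under alternatives, 24 kept their direction but no longer passed, and 2 newly passed. A further 2, those of RAB35 and RAB40C on deposited TPM, turned to the other side of 0 and no longer passed either. In total 19 values lay on the other side of 0, 10 of these on deposited TPM (RAB35 and RAB40C among them). The other 9 were from RAB1A, RAB2A, RAB3D and RAB27B, and the cause was not tested.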

Other observations

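RAB20, which acts on phagosomes and is induced by low oxygen, lay under the limit for testing. It was at 0.564, 0.694 and 1.22 deposited TPM in wild boar and 0.275, 0.445 and 0.409 in Rongchang pig, so every wild boar library stood above every Rongchang pig library. In the fit without a filter its rescaled log2 fold change was 0.60 (SE 0.11, limma adjusted p = 0.0316). The summed markers of endothelial, mural and red blood cells stood higher in the same libraries (1 of 5, 3 of 7 and 4 of 4 genes passing on rescaled TPM). The endothelial gene that passed was CLDN5, and HBB made most of the red blood cell sum. The part of these markers in the RAB20 difference was not tested. RAB37, a member of secretory granules, went the other way, at 0.361, 0.290 and 0.355 deposited TPM in wild boar and 0.676, 1.22 and 1.62 in Rongchang pig (-0.43, SE 0.10, limma adjusted p = 0.0485 without a filter). Both were singled out after their values were seen. RAB1B and RAB21, which had no row in the gene table, hosted 1 and 2 circRNAs, with 14 reads for that of RAB1B and 10 and 9 for those of RAB21 over the 6 libraries.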
